A study of Mus musculus with 6 samples.

Results

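The promoters of 9 serotonin receptor genes, Htr1a, Htr1b, Htr1d, Htr2a, Htr2b, Htr4, Htr5a, Htr6 and Htr7, were examined for trimethylation of lysine 4 of histone H3 (H3K4me3) in mouse striatal progenitor cells. The genes were chosen because they encode some of the receptors that cyproheptadine and loxapine bind, with earlier results of these data known. They are 9 of 21911 protein-coding genes, and a gene counted as marked if any of its annotated transcript starts had a peak no farther than 1 kb away. This rule took 10 peaks out of 227418 in 6 peak lists.

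The study profiled H3K4me3 by ChIP-Seq in STHdh cells, which are conditionally immortalised striatal progenitors on a C57BL/6 background. All cells spent 24 hours in medium without serum. Q7SST was the wild-type STHdhQ7 line with vehicle, and Q111SST was the STHdhQ111 line, which carries an expanded glutamine tract knocked into Huntingtin, with vehicle. The other 4 lists came from STHdhQ111 cells given 10 uM cyproheptadine, loxapine, DKI (diacylglycerol kinase inhibitor II) or meclizine. Cyproheptadine is an antihistamine that also blocks serotonin receptors, loxapine is an antipsychotic that blocks dopamine and serotonin receptors, and meclizine is an antihistamine. Each genotype was represented by 1 line, so an effect of the mutation and a difference between lines cannot be told apart. Each condition had 1 list, so there was no replicate spread, no test between conditions was made, and every difference below describes these lists.

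Serotonin receptors are mostly G protein-coupled receptors. The receptors encoded by Htr1a, Htr1b, Htr1d and Htr5a couple to Gi/o proteins and lower cyclic AMP, those of Htr2a and Htr2b couple to Gq and activate phospholipase C, and those of Htr4, Htr6 and Htr7 couple to Gs and raise cyclic AMP. The striatum receives dense serotonergic input from the raphe nuclei, and several of these receptors are expressed by striatal neurons in the adult brain. H3K4me3 accumulates around the starts of active genes and of genes with CpG-rich promoters, and it is not a measurement of RNA.

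The sequences under the peaks that marked a receptor gene are given first, because they differ in CpG content and in distance from the start. Each is the stretch covered by every peak that marked the gene, on the strand of the gene, from the GRCm38 mouse genome, with CpG dinucleotides in capitals. For Htr1b the stretch was chr9:81633915-81634123 on the minus strand, which lay 295 to 87 bp upstream of the start, was common to 5 lists and held 2 CpG. For Htr1d it was chr4:136424884-136425094 on the plus strand, which lay in an intron, was common to Q7SST and loxapine and held 14 CpG. For Htr7 it was chr19:36058112-36058308 on the minus strand, which lay 801 to 605 bp upstream, came from Q7SST and held 2 CpG.
Htr1b: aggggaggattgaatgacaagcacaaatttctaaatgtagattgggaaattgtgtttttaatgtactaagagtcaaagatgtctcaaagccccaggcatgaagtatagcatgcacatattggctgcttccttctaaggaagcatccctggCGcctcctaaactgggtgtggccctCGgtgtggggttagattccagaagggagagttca
Htr1d: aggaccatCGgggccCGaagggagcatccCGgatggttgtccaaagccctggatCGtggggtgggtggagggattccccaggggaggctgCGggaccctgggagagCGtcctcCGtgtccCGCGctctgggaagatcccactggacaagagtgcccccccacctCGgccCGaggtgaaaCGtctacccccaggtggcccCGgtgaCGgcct
Htr7: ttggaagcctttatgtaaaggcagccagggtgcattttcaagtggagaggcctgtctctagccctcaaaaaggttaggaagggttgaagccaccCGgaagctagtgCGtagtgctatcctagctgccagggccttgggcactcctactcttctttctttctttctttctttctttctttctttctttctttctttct
The Htr7 stretch ended in a simple repeat, and 27.9% of its bases were soft-masked as repeats in the genome file. Both peaks on Htr2a shared 311 bp of untranslated exon, which are not printed.

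The bases just before the starts of Htr2a and Htr7 are shown beside them, since neither was covered by a peak in any list. The Htr2a stretch was chr14:74640590-74640839 on the plus strand with 5 CpG, and the Htr7 stretch was chr19:36057508-36057757 on the minus strand with 45 CpG and 83.2% GC. Both ran from 250 to 1 bp upstream of the start, with CpG in capitals.
Htr2a: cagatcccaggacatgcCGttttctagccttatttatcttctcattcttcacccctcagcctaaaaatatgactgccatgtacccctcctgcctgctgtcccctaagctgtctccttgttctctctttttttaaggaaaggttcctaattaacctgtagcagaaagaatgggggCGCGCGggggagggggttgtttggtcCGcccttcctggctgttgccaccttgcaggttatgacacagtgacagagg
Htr7: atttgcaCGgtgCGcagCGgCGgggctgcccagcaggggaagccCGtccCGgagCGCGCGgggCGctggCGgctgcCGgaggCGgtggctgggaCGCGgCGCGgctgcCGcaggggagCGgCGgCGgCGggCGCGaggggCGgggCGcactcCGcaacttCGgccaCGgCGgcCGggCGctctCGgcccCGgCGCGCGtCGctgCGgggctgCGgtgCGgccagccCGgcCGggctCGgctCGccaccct
The contrast at Htr7 was large. Its CpG-dense start had no peak in any of the 6 lists, and the only peak within 1 kb covered CpG-poor, partly repetitive sequence further upstream.

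In Q7SST 4 of the 9 promoters were marked, namely Htr1b, Htr1d, Htr2a and Htr7, against 59.9% of all protein-coding genes. In Q111SST only Htr1b was marked, 1 of 9 against 58.4%. Htr1b was also the 1 gene marked with cyproheptadine, against 55.4% of all genes. With loxapine Htr1b and Htr1d were marked, 2 of 9 against 58.1%, and with meclizine Htr1b and Htr2a were marked, 2 of 9 against 58.6%. With DKI 0 of 9 were marked, against 55.8%. Across the lists 4 of the 9 genes were marked at least once, against 63.0% of all genes, and 0 of 9 were marked in all 6 lists, against 53.5% of all genes. The share of receptor promoters with a peak was thus below the share of all genes in each of the 6 lists, and 10 of 54 gene and list pairs had a peak.

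**Figure D1:**
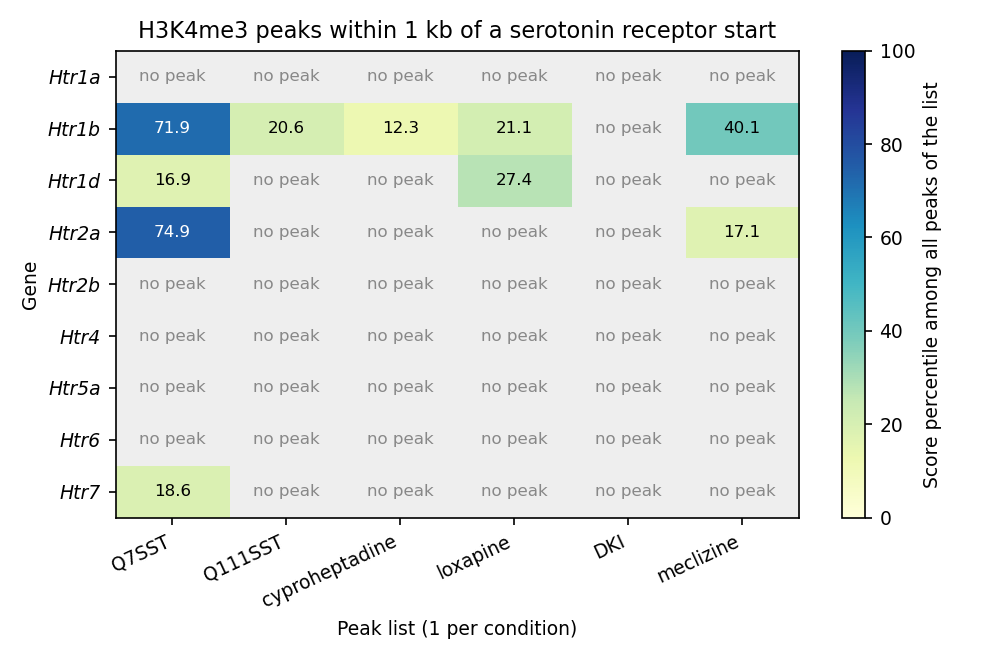
Rows are the 9 receptor genes and columns the 6 peak lists, and each coloured cell gives the score percentile of the strongest peak within 1 kb of a start among all peaks of that list. The 2 darkest cells are Htr2a at 74.9 and Htr1b at 71.9 in Q7SST, and 44 of the 54 cells hold no peak.

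Against Q111SST, Q7SST gained 3 of the 9 promoters (Htr1d, Htr2a and Htr7) where 3.60% of all genes were gained, and lost 0 where 2.08% were lost. Loxapine gained 1 (Htr1d) where 1.01% of genes were gained, and lost 0 where 1.24% were lost. Meclizine gained 1 (Htr2a) where 1.02% of genes were gained, and lost 0 where 0.799% were lost. DKI gained 0 where 0.269% of genes were gained, and lost 1 (Htr1b) where 2.88% were lost. Cyproheptadine gained 0 where 0.306% of genes were gained, and lost 0 where 3.33% were lost. The 5 comparisons share the Q111SST list, and with 1 to 3 receptor genes in a count no order of the compounds was read from them. The list without a receptor peak, DKI, was also the shortest, with 30758 peaks against 45564 with loxapine, the longest. With every list cut to its strongest 30758 peaks, 2 receptor genes were marked in Q7SST (Htr1b and Htr2a), 1 with cyproheptadine and 1 with meclizine (Htr1b in both), and 0 in Q111SST and with loxapine and DKI. Of all genes, 54.8% (cyproheptadine) to 58.1% (Q7SST) were marked in these shortened lists. The loss of Htr1b with DKI and the gains of Htr1d with loxapine, of Htr2a with meclizine and of Htr1d and Htr7 in Q7SST were then absent. Of the gains first listed, that of Htr2a in Q7SST remained, and Htr1b, no longer marked in Q111SST, counted as gained in Q7SST and with cyproheptadine and meclizine. Over all 21911 genes, these equal lists gained 788 in Q7SST, 94 with cyproheptadine and 252 with meclizine.

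The 10 peaks were mostly weak. A peak's score is the caller's own whole number. Percentiles rank it within its list, and raw scores of different lists, printed side by side below, may differ in scale, since list medians ran from 40 to 54. Of the 10 peaks, 8 scored below the median of all peaks of their list, and the same number lay below the tenth percentile of the strongest peaks at marked promoters of that list. The 2 exceptions were Htr1b and Htr2a in Q7SST, with scores of 90 and 98. In the mutant lists the 6 receptor peaks scored 15 to 42, where the median marked promoter scored from 84 with cyproheptadine to 122 with meclizine. Of the 10 peaks, 5 covered a transcript start.

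Among the Gi/o-coupled receptors, Htr1b (ENSMUSG00000049511.5, chr9:81628291-81633828, minus strand) was marked in 5 of the 6 lists, more than any other of the 9 genes. It encodes the release-controlling receptor of serotonergic terminals, which is also present on axon terminals of striatal projection neurons. In Q7SST its peak was 1602 bp wide with a score of 90, at percentile 71.9 of the list. It ran from 1386 bp upstream to 215 bp downstream of the start. This was the broadest and highest-ranked of the 5 Htr1b peaks.

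In Q111SST the Htr1b peak was 315 bp wide with a score of 21, at percentile 20.6, and still reached the start. With loxapine it was 938 bp wide with a score of 22, at percentile 21.1. With meclizine it was 886 bp wide with a score of 42, at percentile 40.1. Loxapine and meclizine peaks both covered the start and were broader than that of Q111SST, whereas the rank of the loxapine peak stood close to that of Q111SST. With cyproheptadine the peak was 249 bp wide with a score of 15, at percentile 12.3, and ended 87 bp before the start. With DKI the nearest peak lay 672530 bp away.

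By score the order of Htr1b percentiles was Q7SST, meclizine, loxapine, Q111SST and cyproheptadine, with DKI unmarked, and no spread was available to say which neighbours in this order differ. The order depended on the measure. By width Q7SST stood at 79.1, loxapine at 58.9, meclizine at 52.5, Q111SST at 9.66 and cyproheptadine at 8.39, so that loxapine passed meclizine. With lists of equal size the peak was kept in Q7SST at 64.9, with meclizine at 24.8 and with cyproheptadine at 3.87, and was lost in Q111SST and with loxapine. By Euclidean distance over the 6 percentiles, with 0 for no peak, the genes with the most similar profiles were Megf6 at 17.5 percentile points, Arfgef3 at 18.0 and Gm11733 at 18.6. These genes were picked by that distance, so their highest rank in Q7SST (69.0, 66.8 and 59.1) and lack of a DKI peak largely restate the selection. Megf6 was marked with cyproheptadine, at 20.2, and the other two were not.

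**Figure D2:**
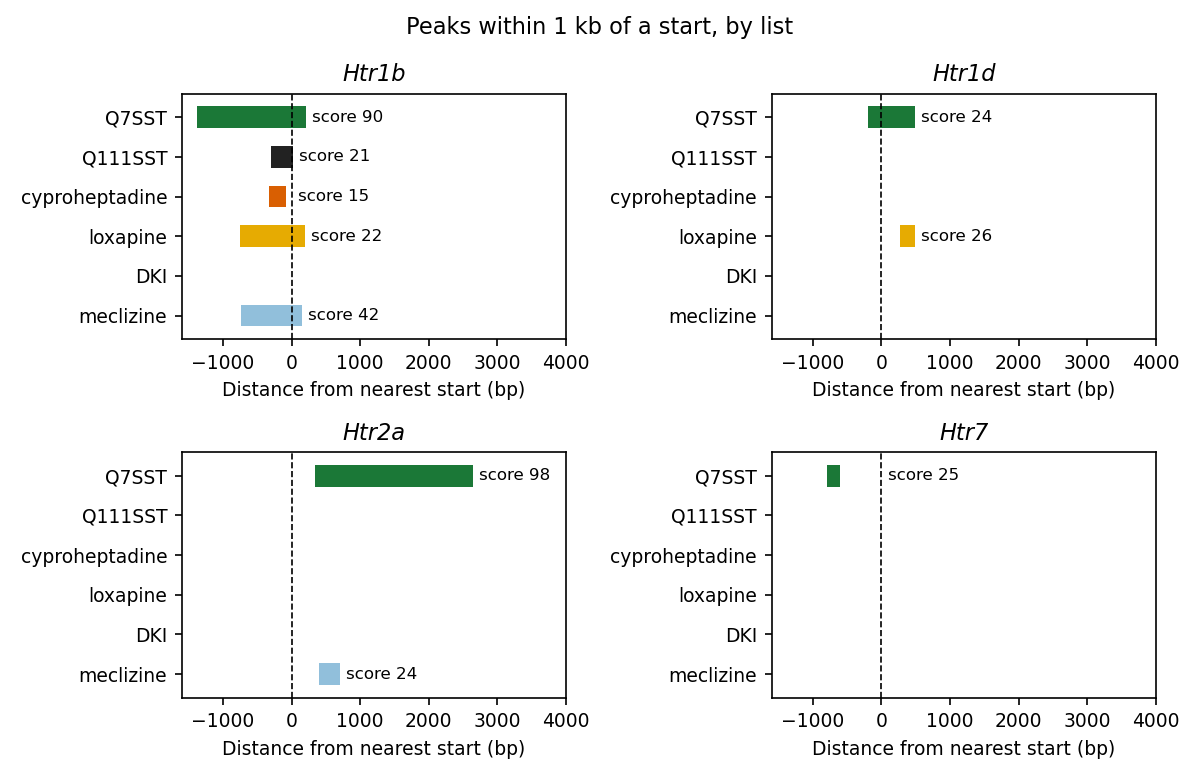
Bars are the peaks that marked each of 4 receptor genes, placed by distance in bp from the nearest transcript start along the gene (negative is upstream, dashed line at 0), with 1 row per list and the score beside each bar. The Q7SST peak on Htr1b spans 1602 bp and that on Htr2a 2312 bp, while the Htr7 peak of 197 bp lies wholly upstream.

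Htr1d (ENSMUSG00000070687.11, chr4:136423524-136444398, plus strand), a receptor of nerve terminals related to that of Htr1b, was marked in Q7SST and with loxapine. The Q7SST peak was 689 bp wide with a score of 24, at percentile 16.9, and covered a start at position 136424612 that belongs to a noncoding transcript. The loxapine peak was 211 bp wide with a score of 26, at percentile 27.4, and lay in an intron 272 bp downstream of that start. By width the order turned, with Q7SST at 36.9 and loxapine at 4.87. The loxapine call rested on this start alone and was lost when starts were limited to the basic transcript set of the annotation. In Q111SST and with cyproheptadine, DKI and meclizine the nearest peaks lay 9098 to 9153 bp away, inside the gene.

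Further into Htr1d every list held 2 peaks beyond 1 kb of a start. The stronger lay within chr4:136441150-136442292 over intron and untranslated exon sequence. Its score was 68 in Q7SST, 70 in Q111SST, 46 with DKI, 67 with cyproheptadine, 88 with meclizine and 89 with loxapine. Its percentiles ran from 49.9 with DKI to 75.6 with loxapine. This intragenic peak ranked above the Htr1d start peak in both lists that had one.

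Htr1a (ENSMUSG00000021721.5, chr13:105443639-105448122, plus strand) encodes the autoreceptor of raphe serotonin neurons and was marked in no list. No list had a peak in the gene or within 50 kb on either side. Its nearest peaks lay 66432 bp away with DKI, 66442 bp with cyproheptadine and 131221 to 131269 bp in the other lists. Htr5a (ENSMUSG00000039106.6, chr5:27842149-27855088, plus strand), a receptor of brain neurons, was also marked in no list and had no peak in its body. With loxapine its nearest peak was 22707 bp away and in the other 5 lists 49652 to 49781 bp away, the latter beside the neighbouring gene Paxip1, which was marked in all 6 lists.

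Of the Gq-coupled receptors, Htr2a (ENSMUSG00000034997.5, chr14:74640840-74709494, plus strand), the main cortical target of serotonergic hallucinogens and a target of many antipsychotics, was marked in Q7SST and with meclizine. The Q7SST peak was 2312 bp wide with a score of 98, at percentile 74.9 by score and 93.2 by width. It began 336 bp and ended 2647 bp downstream of the start, over untranslated, coding and intron sequence. The meclizine peak was 311 bp wide with a score of 24, at percentile 17.1, and lay wholly inside the Q7SST peak. Neither peak covered the annotated start. In Q111SST the nearest peak lay 89005 bp away, with loxapine 89071 bp, with cyproheptadine 91046 bp and with DKI 91516 bp.

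Htr2b (ENSMUSG00000026228.6, chr1:86099026-86111970, minus strand), known for its role in heart development and valve disease, was marked in no list. Its nearest peaks lay 17258 to 35519 bp upstream. No list had a peak in the gene body.

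Of the Gs-coupled receptors, Htr7 (ENSMUSG00000024798.15, chr19:35958734-36057507, minus strand), expressed in thalamus and hypothalamus, was marked in Q7SST alone. That peak was 197 bp wide with a score of 25, at percentile 18.6 by score and 1.49 by width, and lay 605 bp from the start. It was the marking peak farthest from its start. In the mutant lists the nearest peaks lay 20103 bp away with cyproheptadine and 25341 to 25588 bp in the others. Those 4 lay beside Rpp30, which was marked in all 6 lists.

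Htr4 (ENSMUSG00000026322.9, chr18:62324204-62496577, plus strand), a receptor of gut and striatum, lay just outside the 1 kb limit. Its nearest peaks were 1722 bp away in Q111SST with a score of 13 and 1767 bp in Q7SST with a score of 19. With loxapine the nearest peak was 7866 bp away, with meclizine 38519 bp, with cyproheptadine 43917 bp and with DKI 56298 bp. The body of Htr4 held 1 peak in Q7SST, 3 in Q111SST, 0 with DKI, 1 with meclizine, 3 with cyproheptadine and 5 with loxapine. The strongest of them in the 4 mutant lists that had any lay in an intron near the end of the gene. The scores were 24 in Q111SST, 25 with cyproheptadine, 66 with loxapine and 31 with meclizine. Their percentiles were 25.9, 30.4, 64.5 and 27.6 in the same order.

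Htr6 (ENSMUSG00000028747.10, chr4:139061108-139075570, minus strand), a receptor enriched in striatum, had its nearest peak 3035 bp away with DKI, at a score of 14. In the other lists the nearest peaks lay 15572 to 15874 bp away, beside Nbl1, which was marked in all 6 lists. The body of Htr6 held no peak.

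**Figure D3:**
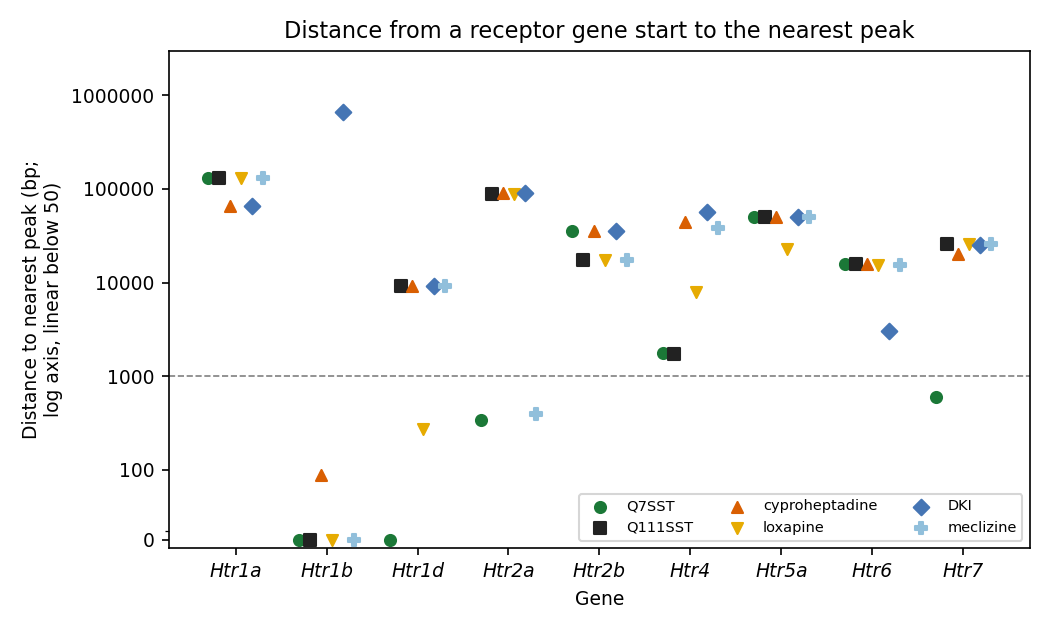
Each symbol is the distance in bp from a transcript start of a receptor gene to the nearest peak of 1 list, on a log axis that is linear below 50 bp, with a dashed line at the 1000 bp limit. The DKI symbol for Htr1b stands at 672530 bp, and Htr4 in Q111SST and Q7SST sits just above the line at 1722 and 1767 bp.

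The base composition of the starts was compared with that of other genes, since H3K4me3 follows CpG content. In 1000 bases around the gene start, the observed over expected CpG ratio of the 9 genes had a median of 0.440, against 0.552 over 21894 genes. The ratios were 0.425 for Htr1a, 0.512 for Htr1b, 0.253 for Htr1d, 0.440 for Htr5a, 0.405 for Htr2a, 0.180 for Htr2b, 0.487 for Htr4, 0.757 for Htr6 and 0.918 for Htr7. With CpG-rich taken as a ratio of at least 0.6 and GC of at least 50%, Htr6 and Htr7 qualified, 2 of 9 against 44.4% of all genes.

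CpG-rich promoters were marked in 87.6% with cyproheptadine to 92.6% in Q7SST, and other promoters in 29.6% with cyproheptadine to 33.8% in Q7SST. Htr6 and Htr7 were therefore CpG-rich promoters without a peak over the start in any list, and Htr1b and Htr2a were marked promoters outside the CpG-rich class. At Htr1d the window around the gene start did not reach its marking peaks, which lay at a start further into the gene. The Q7SST peak on Htr1d had a ratio of 0.711 and 72.7% GC, above both limits, and the loxapine peak 0.564 and 68.7%. How far CpG content accounts for the low share of marked receptor genes was not tested.

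**Figure D4:**
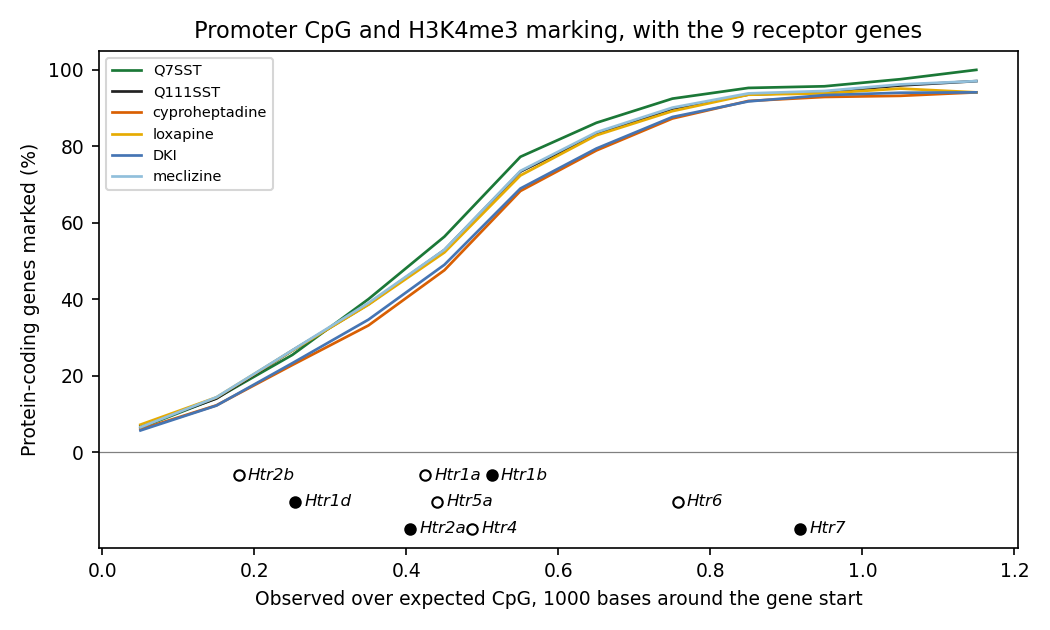
Lines give the percentage of protein-coding genes marked in each list by bins of observed over expected CpG in 1000 bases around the gene start. Points below 0 place the 9 receptor genes on the same axis (filled if marked in at least 1 list, open if in none, height without meaning), and Htr7 at 0.918 and Htr6 at 0.757 lie farthest right.

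Short motifs were searched on both strands of the same windows. The GC box GGGCGG matched in 8 of the 9 genes (all but Htr2b) and in 60.4% of all genes, CCAAT in 4 (Htr1b, Htr1d, Htr5a and Htr6) and 70.6%, and TATAAA in 2 (Htr1b and Htr2b) and 32.3%. The palindromic cyclic AMP response element TGACGTCA matched in 0 of 9 and 3.33%. The letters GACAGCGCC, the right part of the element bound by the neuronal gene repressor REST, matched in Htr5a and in 1.45% of all genes. A match is a description of letters, not a site of binding. The Htr5a match began 408 bp upstream of the start, and is shown in capitals within chr5:27841699-27841948, plus strand, where no list had a peak.
Htr5a: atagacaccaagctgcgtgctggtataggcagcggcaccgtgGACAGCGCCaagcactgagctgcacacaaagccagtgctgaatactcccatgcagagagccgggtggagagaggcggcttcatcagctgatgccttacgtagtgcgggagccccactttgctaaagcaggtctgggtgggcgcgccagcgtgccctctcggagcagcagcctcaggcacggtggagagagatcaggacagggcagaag

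Other genes of the serotonin system showed where marking was present. Of the 5 further serotonin receptor genes, Htr1f, Htr2c, Htr3a and Htr3b were marked in no list. Htr5b, a pseudogene in humans, was marked with scores of 45 in Q7SST, 19 in Q111SST, 11 with loxapine and 19 with meclizine. Its percentiles were 45.4, 16.8, 2.07 and 9.13 in the same order. Like Htr1b it ranked highest in Q7SST and had no peak with DKI, and it also had none with cyproheptadine.

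Of 11 genes of serotonin synthesis, transport and breakdown, 3 were marked in all 6 lists, 6 in none and 2 in some. Tph1, Tph2 and Ddc, the enzymes that make serotonin, were marked in none. Slc6a4, the serotonin transporter, was marked in all 6. Its scores were 178 in Q7SST, 198 in Q111SST, 137 with cyproheptadine, 142 with DKI, 182 with loxapine and 205 with meclizine. Its percentiles were 95.5 in Q7SST, 98.2 in Q111SST, 95.6 with cyproheptadine, 94.6 with DKI, 96.8 with loxapine and 96.5 with meclizine. Maoa, which degrades serotonin, was marked in all 6 with scores of 28 to 49. The peak on Slc18a1, a vesicular amine transporter, also lay within 1 kb of a start of Atp6v1b2. Slc29a4, a low-affinity monoamine transporter, was marked in Q7SST alone, and Aanat, a melatonin synthesis enzyme, with loxapine and meclizine.

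Genes of signalling proteins downstream of the receptors were set against all protein-coding genes, of which 53.5% were marked in all 6 lists and 37.0% in none. Of 10 G protein alpha subunit genes, 9 were marked in all 6 lists, and Gnal, the Gs-type subunit of striatal neurons, in Q7SST and with meclizine. Of 16 effector and regulator genes, 8 were marked in all 6 lists, 5 in none and 3 in some, or 50.0% in all 6, close to the share of all genes. The 8 included Arrb1 and Arrb2, the beta-arrestins, and S100a10, whose product binds the Htr1b receptor. Adcy5, the main adenylyl cyclase of striatal neurons, was among the 5 in none.

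Other receptor families that these compounds bind were examined in the same way. Hrh1, the histamine receptor that antihistamines block, was marked in all 6 lists, with scores of 79 in Q7SST, 116 in Q111SST, 124 with cyproheptadine, 125 with both loxapine and meclizine, and 127 with DKI. Of the other 8 histamine and muscarinic receptor genes, Chrm2 was marked in Q7SST and with meclizine, Chrm3 in Q7SST, and 6 in none. Of 5 dopamine receptor genes, Drd4 was marked in Q7SST and 4 in none.

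**Figure D5:**
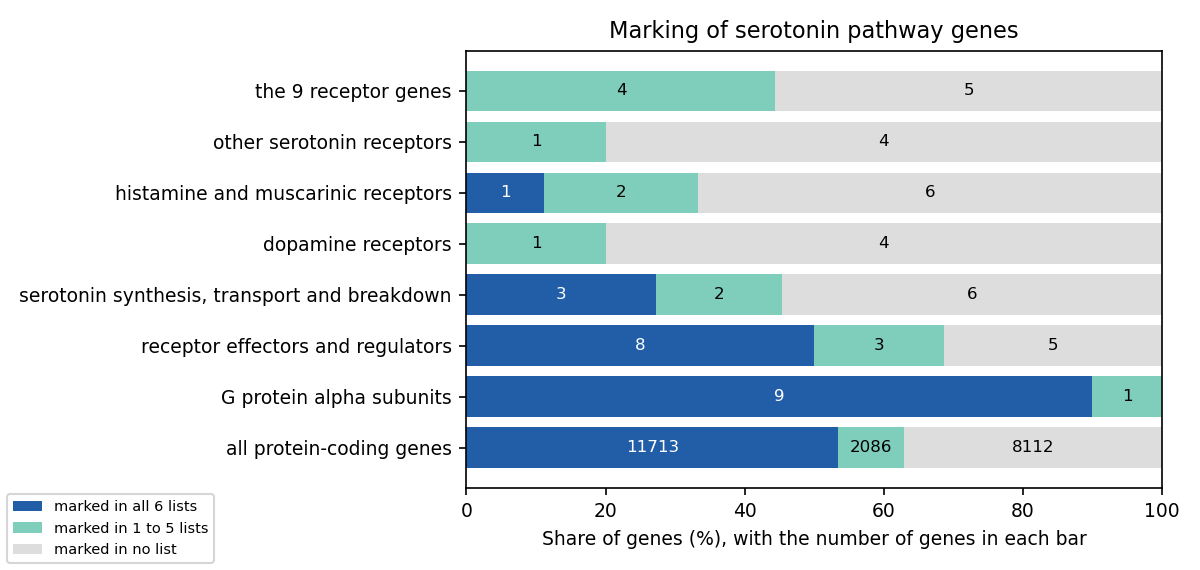
Bars divide each group of genes by the share, in percent, marked in all 6 lists, in 1 to 5 lists or in none, with the number of genes inside each bar. No serotonin receptor gene is marked in all 6 lists, whereas 9 of 10 G protein alpha subunit genes are.

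The lists themselves were checked by markers. Of 6 neural progenitor markers 5 or 6 were marked in each list. Of 9 striatal lineage factors all 9 were marked in Q7SST and 7 in each mutant list, with Gsx2 and Bcl11b absent there. The Q7SST call on Gsx2 was a weak peak of 197 bp with a score of 16, at percentile 2.76, lying 791 bp from a start. That on Bcl11b had a score of 56, at percentile 54.7, and covered a start. Of 7 markers of mature striatal projection neurons 6 were marked in Q7SST, 4 in Q111SST and with meclizine, 3 with loxapine, and 1 with DKI and with cyproheptadine. These counts were, like those of the receptor genes, highest in Q7SST. Their lowest value was shared by DKI and cyproheptadine, whereas the receptor count was lowest with DKI alone. The share of all genes marked was also highest in Q7SST (59.9%) and lowest with cyproheptadine (55.4%) and DKI (55.8%). What part these patterns had in the receptor counts was not tested. Of 6 serotonergic neuron markers 3 (Slc6a4, Gata2 and Gata3) were marked in every list, and Fev with meclizine only. Tph2 and Slc18a2 were marked in none. Across the lists Slc6a4 stood at percentiles 94.6 to 98.2, Gata3 at 94.9 to 99.3 and Gata2 at 48.9 to 78.0. Astrocyte markers were marked in 2 to 3 of 4, fibroblast markers in 3 to 4 of 5, microglia markers in 1 to 2 of 4, and oligodendrocyte markers in 0 of 5 except for 1 with meclizine.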

How the data were processed

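H3K4me3 ChIP-Seq was measured in 6 samples, 1 peak list per condition, grouped by the sample labels. Per the series' design text cells were treated in triplicate, and pooling of replicates into a list is not stated. The submitters' processing notes name Trimmomatic 0.36, Bowtie2, SAMtools 1.3, MACS2 and mm10, and the peak threshold and any input control are not given in the sources used here. The authors deposited each peak with a whole-number score, whose scale is not stated and whose lowest value was 10 in each list. Lists held 30758 to 45564 peaks, with median scores of 40 to 54. Read depth is unknown.

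Peaks were compared with transcript starts of GENCODE mouse release M21 on GRCm38, where peaks ran past the chromosome end on 0 of 21 chromosomes. Genes on the mitochondrial genome were left out. Strength was the percentile of the strongest peak within 1 kb, with ties at their midpoint. Sequences came from the RefSeq copy of GRCm38. Named genes were the 9 receptor genes, the fixed gene lists, the nearest neighbouring genes, and the 3 genes with the closest profile for any receptor gene marked in at least 4 lists. The 9 genes and the lists were chosen with earlier results of these data known. The code for marking, distances and ranks was tested on simulated data with known answers. Alternatives were starts covered by a peak, a 5 kb window, a score of at least 47 (the pooled median), lists of equal size, basic transcripts, merged peaks, ranking by width or among marked promoters, and a wider CpG window. Tools were Python 3.11.15, pysam 0.24.0, pandas 2.3.3, numpy 2.4.6, scipy 1.17.1 and matplotlib 3.10.9.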

Additional observations from a re-analysis of the deposited data

How the results depend on the processing

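When a peak had to cover a start, 2 receptor genes were marked in Q7SST, 0 with cyproheptadine, 1 with loxapine and 1 with meclizine, where 45.4% (cyproheptadine) to 53.0% (Q7SST) of all genes were marked. Gains against Q111SST were then 1 in Q7SST (916 of all 21911 genes), 0 with loxapine (235) and 0 with meclizine (483), and cyproheptadine lost 1 (Htr1b) among 1427 genes lost. Within 5 kb, 5 were marked in Q7SST and 2 in Q111SST (Htr4 added in both) and 1 with DKI (Htr6), against 60.2% to 64.8% of all genes over the lists. DKI then gained 1 (88 of all genes) and lost 2 (853), and cyproheptadine (913), loxapine (292) and meclizine (279) each lost 1 (Htr4). With peaks scoring at least 47, 2 were marked in Q7SST (Htr1b and Htr2a) and 0 in Q111SST and with cyproheptadine, loxapine and meclizine, against 46.6% to 53.6% of all genes. Gains were then 2 in Q7SST (Htr1b and Htr2a, with 777 of all genes), 0 with loxapine (268) and 0 with meclizine (415), and the loss with DKI was 0 (1302). This 1 score limit applied to all lists kept 14997 of 33721 peaks with cyproheptadine and 21505 of 38577 with meclizine, so it carries any difference in scale. With lists of equal size, 2 were marked in Q7SST, 0 in Q111SST, 0 with loxapine and 1 with meclizine (Htr1b), against 54.8% to 58.1% of all genes. Cyproheptadine then gained 1 (94 of all genes), loxapine gained 0 (128) and DKI lost 0 (328). With basic transcripts, 1 was marked with loxapine, against 56.9% of all genes, and its gain was 0 (204 of all genes). Merging peaks changed no count of receptor genes. Q7SST had the highest count of receptor genes under each of these settings, and also the highest share of all genes. Ranked among marked promoters only, the 10 receptor peaks stood lower, with Htr1b in Q7SST at percentile 33.2 and Htr2a in Q7SST at 38.6. Ranked by width, Htr1b with loxapine stood at 58.9, and Htr1d with loxapine stood at 4.87. The wider CpG window left 2 of 9 receptor genes CpG-rich, while the share of all genes fell from 44.4% to 29.9%.

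Counts of 1 or 2 peaks, most of them low in score, limit what can be read from the mutant lists, and the depth behind each list is unknown. Library depth and pooling cannot be told apart from condition here. No paired analysis was possible because every condition was represented by a single peak list.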

Other observations

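The genes next to the receptor genes were examined for the same marking. Of the 17 protein-coding genes whose starts lay nearest on either side, 13 were marked in all 6 lists, 3 in none and 1 in some, where 53.5% of all protein-coding genes were marked in all 6 and 37.0% in none. The difference was not tested. The 1 was Mei4, 229842 bp upstream of Htr1b, which was marked in Q7SST alone. Psmd1 starts flanked Htr2b at 15897 and 45801 bp, and Psmd1 was marked in all 6 lists.

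The set of lists in which each receptor gene was marked was set beside those of all 21911 protein-coding genes. Of these, 2086 (9.52%) were marked in 1 to 5 lists. The set of Htr1b, every list but DKI, was that of 82 protein-coding genes (0.374%). The set of Htr1d was that of 38 (0.173%), and the set of Htr2a that of 66 (0.301%). Each count includes the receptor gene. The set of Htr7, Q7SST alone, was that of 610 genes (2.78%). The 5 receptor genes without a peak fell among 8112 genes (37.0%) marked in no list.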
